A study of Saccharomyces cerevisiae with 17 samples.

Results

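Saccharomyces cerevisiae cells of strain BY25598 were followed through the first 10 min of a salt shock while the exonuclease Xrn1 was left in place. 6 of the 17 libraries of the series entered the comparison, chosen by their labels alone, and all 7126 features of the count table were read. 3 libraries came from Xrn1-WT cells held for 10 min in 0.4 M NaCl and 3 from Xrn1-WT cells without stress. In every group the cells were MATa, carried ade2-1, trp1-1 and can1-100 with his3-11,15 and a mutant leu2 allele, and expressed the plant receptor OsTIR1 with a 9Myc tag from the ADH1 promoter at ura3-1 (URA3). In every group Xrn1 also carried the auxin-inducible degron (XRN1-AID, HIS), so Xrn1-WT means tagged Xrn1 in cells given no auxin, and the labels name no solvent control. Cells grew to log phase in YPD at 30 °C before the salt was added. 2 further comparisons used the 3 Xrn1-WT libraries at 30 min NaCl, and the 3 Xrn1-AID libraries each at no stress and at 10 min NaCl, whose cells had 30 min of 500 µM auxin beforehand. Nothing in the labels ties replicates to cultures of their own, so p-values measure the spread between these samples, which may be technical.

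A rise in external salt draws water out of a yeast cell, and the HOG (high osmolarity glycerol) cascade answers it: sensors in the membrane pass the signal to the kinases Ssk2, Ssk22 and Ste11, then to Pbs2 and to the MAP kinase Hog1, which acts on transcription factors such as Hot1, Sko1 and Smp1. Glycerol made from a glycolytic intermediate by Gpd1 and Gpp1 or Gpp2 is the main counterweight to the lost water. In parallel the factors Msn2 and Msn4 bind the stress response element (STRE) in many promoters, while the genes that build ribosomes, many of which carry the PAC and RRPE promoter elements, are commonly turned down in stressed yeast.

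The 6 libraries held 16.5 to 30.4 M counts. Levels below are CPM, counts scaled to a common library total adjusted by TMM, so they are shares of the mRNA pool: less of an mRNA per cell, fewer cells holding it and a larger pool of other mRNA cannot be told apart. Changes are log2 fold changes ± standard error (SE) from edgeR's quasi-likelihood test over 6195 genes, with a call at a p under 0.05 after Benjamini-Hochberg adjustment. By that call 44.2% of all tested genes changed, 19.7% higher and 24.6% lower, and the counts of every group below are to be read against those shares. The median over all tested genes was -0.06, and -0.50 when library size alone set the scale, so changes are relative to the bulk of genes.

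The first principal component of the 6 libraries (67.9% of the variance) separated the groups. The second (21.9%) set the no-stress replicate 3 and the 10 min replicate 2 apart from the other 4. In both of these, genes under 500 bases stood above their group (median deviation 0.28 and 0.38 on the log2 scale) and genes over 3000 bases below it (-0.31 and -0.55). The 2 libraries lie in opposite groups, and without them 1175 genes were called higher and 1455 lower. The no-stress replicate 1 differed in another way, since it held more mRNA of some stress genes than its partners. HSP12, SPI1, CTT1 and SSA3, the markers of already stressed cells, summed to 386 CPM there, to 74.3 and 103 CPM in the other no-stress libraries and to between 7773 and 11122 CPM at 10 min. The excess lay in HSP12, SPI1 and CTT1, while SSA3 was level at 35.6, 35.3 and 36.7 CPM without stress. Of the 15 named genes with the largest rises, 13 had their highest no-stress value in replicate 1, and without it the fold of 9 of them grew by more than 1.5 times. The a-cell markers (6 genes) summed to 627 to 795 CPM without stress and 479 to 593 CPM at 10 min, the alpha-cell markers (4 genes) to 19.2 to 23.9 and 10.1 to 23.6 CPM, with STE3 and both alpha-factor genes under 1 CPM in all 6 libraries. The meiosis markers (10 genes) summed to 29 to 36.1 and 52.6 to 76.5 CPM. XRN1 itself was at 24.4, 38.5 and 12.2 CPM without stress and 46.9, 20.9 and 39.1 CPM at 10 min, and did not pass (0.51 ± 0.35, adjusted p = 0.256).

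The early response was lopsided in size. 1218 genes were called higher and 1522 lower, an order that held with library size alone (586 and 2463) but not with the 2 compared groups fitted alone (897 and 886) or with glmTreat against 1.5-fold (618 and 534). The large changes were mostly rises: 343 genes rose and 46 fell by more than 4-fold, 162 rose and 5 fell by more than 8-fold, and 40 rose by more than 32-fold against none that fell so far. The 15 named genes with the largest rises took 0.0434% of the counts without stress and 2.70% at 10 min. Several of them are little known by name. PNS1, which encodes a plasma membrane protein related to choline transporters, stood at 65.8, 26.4 and 33.1 CPM without stress and at 3412, 4352 and 3235 CPM at 10 min (6.46 ± 0.39, adjusted p = 3.24e-09). RTC3, of uncertain function, stood at 156, 11.2 and 28.3 CPM and then at 3027, 6418 and 4244 CPM (6.14 ± 0.76, adjusted p = 7.29e-06). The groups lie far apart for both genes, although the no-stress replicate 1 was the highest of its group each time, and without it RTC3 changed by 7.85. YJL107C was at 4.41, 6.07 and 0.519 CPM and then at 408, 115 and 383 CPM (6.38 ± 0.76), with the lowest value of each group in a library that stood apart, and its counts may include reads of PRM10, which it overlaps. PUT4, the proline permease gene, went from 60.5, 19.9 and 39.1 CPM to 2585, 3375 and 2276 CPM (6.11 ± 0.37, adjusted p = 2.93e-09). FMP45 and YNL194C, which encode membrane proteins of the SUR7 family found at eisosomes, rose by 6.37 ± 0.52 and 6.32 ± 0.49.

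**Figure D1:**
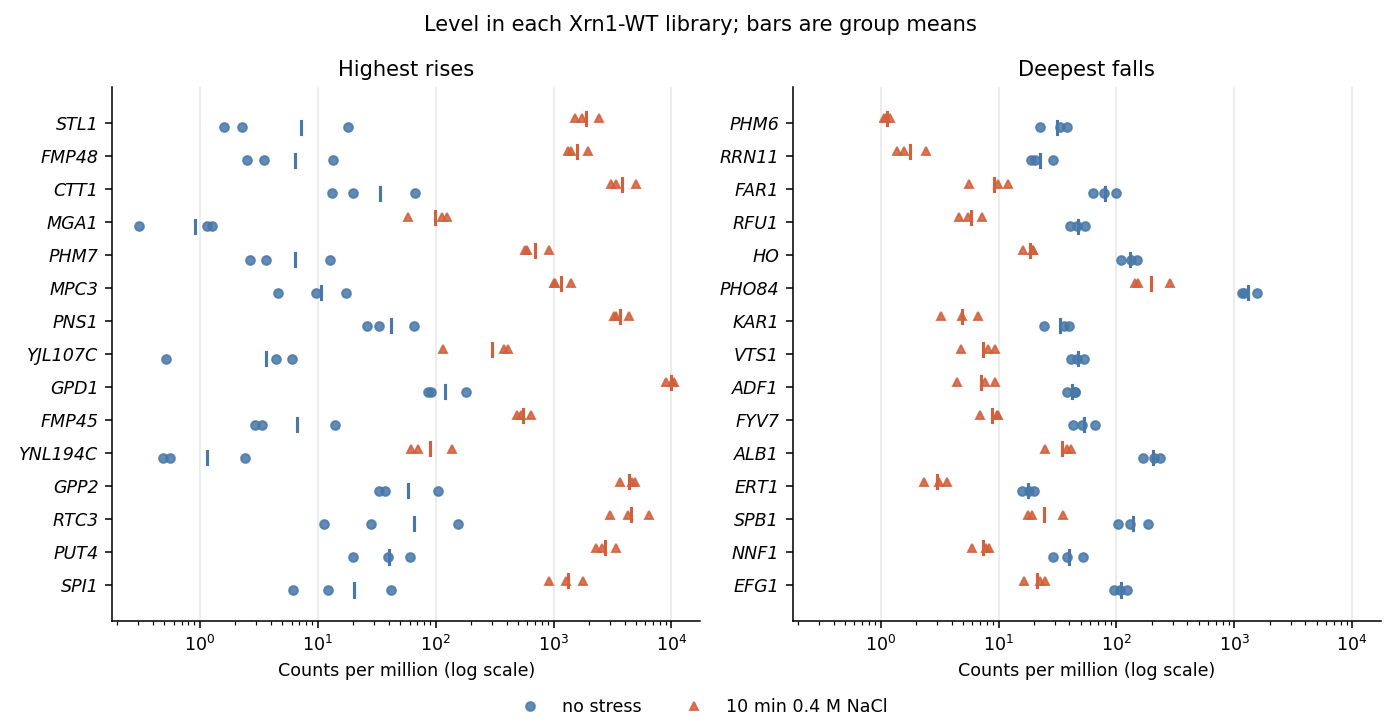
Level of the 15 genes per direction with the largest changes, in CPM on a log axis, in each of the 3 no-stress (circles) and 3 10 min NaCl (triangles) libraries, with bars at the group means. The groups do not overlap for any of them, by the rule that chose them, and the no-stress values of the rising genes spread more widely than those of the falling genes.

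Glycerol genes differed by role. The list of 16 genes had 9 higher and 1 lower (median 0.80), and took 0.213% ± 0.0465 of the counts without stress and 1.67% ± 0.276 at 10 min (SD, n = 3). All 4 synthesis genes rose. GPD1, the dehydrogenase that starts the route, was at 181, 85.3 and 92.1 CPM without stress and at 9055, 10095 and 10425 CPM at 10 min. GPP2, a glycerol 3-phosphatase, was at 105, 32.9 and 36.9 CPM and then at 3629, 4900 and 4611 CPM (6.24 ± 0.42, adjusted p = 8.81e-09). The partner GPP1 started much higher, at 1287, 1238 and 1340 CPM, and reached 4457, 6393 and 5062 CPM (2.04 ± 0.21). Among transport genes STL1, the glycerol importer, rose by 8.04 ± 0.77, while FPS1, the channel through which glycerol leaves, fell by 0.37 on the log2 scale (SE 0.12, adjusted p = 0.0214) with values of 84.6, 101 and 84.8 against 71.1, 65.3 and 73.3 CPM. The channel's regulators RGC1 (0.44 ± 0.29) and ASK10 (-0.15 ± 0.18) did not pass. 4 of 6 breakdown genes rose, with DAK1, a dihydroxyacetone kinase, from 109, 94.5 and 93 CPM to 359, 393 and 479 CPM (2.06 ± 0.15).

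The genes of the HOG cascade changed in both directions. Of 22 genes 6 rose and 5 fell (median -0.15). These shares, 27.3% and 22.7%, lie near the 19.7% and 24.6% of all tested genes. With library size alone 1 was called higher and 9 lower (median -0.61). HOG1 was at 230, 241 and 240 CPM without stress and at 380, 389 and 389 CPM at 10 min (0.70 ± 0.11, adjusted p = 0.000121). SSK1, the response regulator that activates Ssk2 and Ssk22, went from 47.4, 49.4 and 42.2 CPM to 181, 162 and 200 CPM (1.97 ± 0.13). The kinase gene directly below it went the other way: SSK2 fell from 33.8, 48.4 and 41.2 CPM to 21.2, 11.5 and 22 CPM (-1.17 ± 0.23, adjusted p = 0.000737). The osmosensor genes SLN1 (-0.94 ± 0.27), HKR1 (-0.80 ± 0.31) and SHO1 (-0.39 ± 0.11) fell too. Both tyrosine phosphatases that act on Hog1 rose, PTP2 by 1.10 ± 0.28 and PTP3 by 0.99 ± 0.21, while PTC2, a serine/threonine phosphatase of the pathway, fell by 0.80 ± 0.29. PBS2, the kinase that activates Hog1, did not pass (0.01 ± 0.18).

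Among 39 stress transcription factors 15 rose and 3 fell (median 0.31, and -0.12 with library size alone). All 15 that rose did so by more than 2-fold, where 10.8% of all tested genes were called higher by that much and 8.36% lower. Of them 4 belong to the 13 factors of the Hog1 and Msn2/4 branch and 11 to 26 secondary regulators. MGA1, a factor related to heat shock factors and linked to filamentous growth, went from 1.16, 1.26 and 0.303 CPM to 124, 58 and 114 CPM. ROX1, the repressor of hypoxic genes, went from 36.9, 46.4 and 12.8 CPM to 367, 147 and 334 CPM (3.14 ± 0.42). CIN5, a basic leucine zipper factor, went from 15.3, 16.4 and 6.45 CPM to 162, 160 and 308 CPM (4.05 ± 0.35). USV1 (4.15), XBP1 (3.50), NRG1 (3.45), MOT3 (3.17) and NRG2 (2.52) rose as well. Of the factors that carry the first signal, the mRNA of MSN2 rose from 37.3, 49.8 and 18.9 CPM to 329, 178 and 303 CPM (2.94 ± 0.30) and SMP1 rose by 2.28 ± 0.34. HOT1 (0.03 ± 0.20), SKO1 (-0.62 ± 0.27), MSN4 (-0.24 ± 0.34) and HSF1 (-0.01 ± 0.14) did not pass. MIG2, a glucose repressor (-1.21 ± 0.20), and SOK2 (-0.96 ± 0.20) fell, and so did YAP6, from 7.88, 10.5 and 4.93 CPM to 4.46, 2.51 and 4.56 CPM (adjusted p = 0.0106).

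The STRE was searched as AGGGG on both strands of the 600 bases before each start codon, a window added after the data were seen, and in the 250 bases before to 50 bases after it. In the shorter window 21.6% of all 5988 protein-coding promoters held it, against 43.5% of the 589 genes that rose and 10.9% of the 494 that fell by more than 2-fold. In the longer window the shares were 39.7%, 69.1% and 25.5%, and 34 of the 35 genes that rose by more than 32-fold had at least 1. The number of elements ran with the response. Of 3446 genes with none 5.28% rose by more than 2-fold, of 1683 with 1 11.9%, of 489 with 2 26.2%, of 104 with 3 49.0% and of 38 with 4 or more 71.1%, and the median change went from -0.20 to 2.34. The elements are shown in the promoters of 5 genes that rose, from RefSeq's R64 genome (the build sacCer3), written 5′ to 3′ in the direction of the gene with the STRE, or its reverse complement CCCCT, in capitals. These are HSP12 (chrVI:106811-106893, + strand), CTT1 (chrVII:654246-654285, +), DDR2 (chrXV:231916-232013, -), TSL1 (chrXIII:70383-70473, +) and GPD1 (chrIV:411485-411553, +), each stretch ending at least 151 bases before the start codon.
HSP12: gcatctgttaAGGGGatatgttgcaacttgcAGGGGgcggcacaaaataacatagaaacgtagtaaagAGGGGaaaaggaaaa
CTT1: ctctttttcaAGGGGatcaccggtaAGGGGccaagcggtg
DDR2: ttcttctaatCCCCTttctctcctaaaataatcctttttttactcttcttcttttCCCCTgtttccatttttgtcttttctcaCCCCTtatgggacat
TSL1: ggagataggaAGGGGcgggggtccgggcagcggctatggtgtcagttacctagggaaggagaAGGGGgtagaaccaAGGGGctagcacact
GPD1: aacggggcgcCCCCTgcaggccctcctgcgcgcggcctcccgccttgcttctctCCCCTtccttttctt
HSP12 and TSL1 have 5 elements within 600 bases, CTT1 and DDR2 have 4 and GPD1 has 3, and each printed stretch is the one with most elements within 120 bases. A match of 5 letters is a description of the sequence and not a site shown to be bound.

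**Figure D2:**
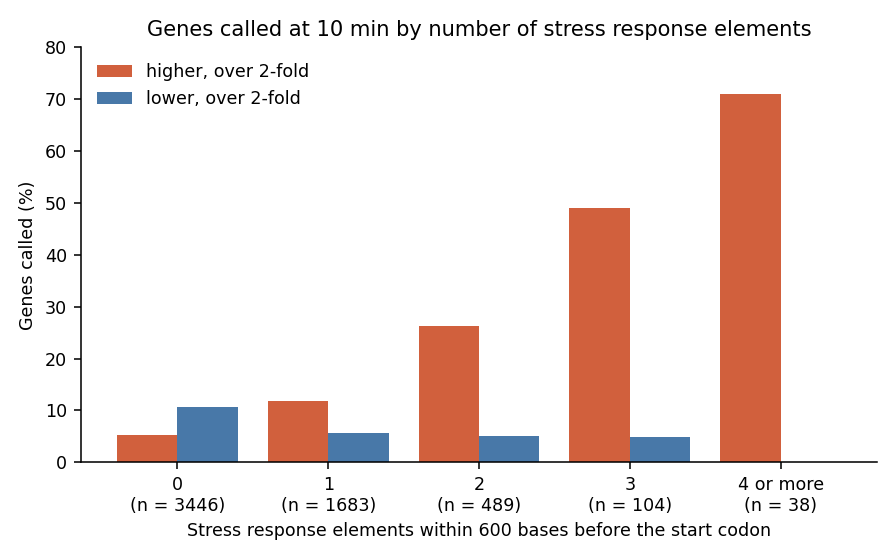
Share of tested protein-coding genes called higher (red) or lower (blue) by more than 2-fold at 10 min, in percent, by the number of stress response elements on either strand in the 600 bases before the start codon, with the number of genes under each pair of bars. The share of risen genes goes from 5.28% with none to 71.1% with 4 or more, and no gene of the last group fell by more than 2-fold.

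Storage carbohydrates rose in most of their genes. Of 22 genes of trehalose and glycogen metabolism 18 rose and 1 fell (median 2.12). All 7 genes of trehalose synthesis rose, trehalose being a disaccharide that guards proteins and membranes. TPS1, its synthase, was at 162, 114 and 139 CPM without stress and 2745, 3707 and 3306 CPM at 10 min (4.55 ± 0.21, adjusted p = 5.74e-10). The phosphatase TPS2 (5.02 ± 0.29) and the regulatory subunit TSL1 (5.38 ± 0.29) rose with it. So did NTH1, a trehalase that breaks the sugar down, from 75.3, 70.7 and 84.1 CPM to 599, 611 and 817 CPM (3.14 ± 0.16), whereas its relative NTH2 stood at 33.1, 33.9 and 31 and then 29.8, 29.6 and 46.8 CPM. GSY1, a glycogen synthase, rose from 13, 11.6 and 10.4 CPM to 312, 322 and 523 CPM (5.05 ± 0.24), and all 3 genes of glycogen breakdown rose as well, GPH1 by 2.11, GDB1 by 2.06 and SGA1 by 1.90.

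All 4 kinases that phosphorylate hexoses rose. GLK1, a glucokinase gene whose counts may include its overlapping neighbour YCL042W, went from 168, 74.3 and 133 CPM to 4379, 5938 and 4996 CPM (5.35 ± 0.31), and EMI2, its relative, from 54.2, 48.6 and 62.7 CPM to 715, 1232 and 1184 CPM (4.24 ± 0.25). HXK1 rose by 4.29 ± 0.36 and HXK2, the hexokinase of glucose-grown cells, by 1.02 ± 0.20. Of 13 hexose transporter genes tested 4 rose and 1 fell. HXT5 went from 22.3, 11.6 and 8.18 CPM to 516, 486 and 760 CPM (5.39 ± 0.34), and HXT1, the low-affinity carrier, from 405, 324 and 353 CPM to 5351, 4107 and 4803 CPM (3.72 ± 0.31). GAL2, the galactose permease gene, went from 0.882, 0.583 and 0.908 CPM to 26.3, 21.9 and 22.3 CPM (4.88 ± 0.28), although no galactose is named in the medium. The near-identical HXT6 and HXT7 (0.24 and 0.20) did not pass, and neither did HXT3 (-0.19) or HXT2 (-0.28).

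In glycolysis and fermentation 18 of 34 genes rose and 1 fell (median 0.72), and 27 rose and 2 fell without the 2 libraries that stood apart. 4 aldehyde dehydrogenase genes were among the 6 that moved most: ALD3 rose by 4.83, ALD4 by 4.15, ALD2 by 3.63 and ALD6 by 2.58, and the counts of ALD2 and ALD3 are uncertain because the genes are near-identical. In lower glycolysis 3 of 11 genes rose, and 9 rose and 1 fell without the 2 libraries that stood apart. TDH3 (0.91 ± 0.37), ENO2 (0.52 ± 0.40) and ADH1 (0.68 ± 0.36) did not pass and CDC19, pyruvate kinase, rose by 0.83 ± 0.24. 20 of 31 genes of the TCA and glyoxylate cycles rose and none fell (median 0.63). MPC3, the mitochondrial pyruvate carrier subunit used on non-fermentable carbon, led them, and MDH2, the cytosolic malate dehydrogenase, went from 10.9, 12.8 and 7.57 CPM to 168, 137 and 172 CPM (3.93 ± 0.22). In the pentose phosphate pathway, where 6 of 12 genes rose and 1 fell, TKL2 (5.89), SOL4 (5.01), GND2 (3.38) and NQM1 (3.28) rose most. Of their partner isozymes TAL1 rose by 0.69 ± 0.17, TKL1 (-0.05), SOL3 (0.35) and GND1 (0.06) did not pass, and RKI1 of the same pathway fell by 0.87. With library size alone GND1 was called lower (-0.39, adjusted p = 0.0246).

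Protective proteins rose in most but not all classes. Of 16 hydrophilins and membrane protectors 14 rose and 1 fell (median 3.80). HSP12, a small membrane-binding protein, was at 241, 19.8 and 33.7 CPM without stress and 3411, 5469 and 4815 CPM at 10 min (5.54 ± 0.72, and 7.41 without the no-stress replicate 1). DDR2 was at 13.7, 1.94 and 3.98 CPM and then at 282, 404 and 461 CPM (5.88 ± 0.52), again highest of its group in that replicate. The hydrophilins GRE1 and SIP18 were only starting: GRE1 went from 6.95, 1.65 and 1.73 CPM to 9.91, 11.4 and 13.9 CPM (1.80 ± 0.39) and SIP18 from 4.03, 0.777 and 1.86 CPM to 2.83, 8.17 and 5.41 CPM (1.30 ± 0.48). The groups of SIP18 overlap. 10 of 30 antioxidant genes rose and none fell (median 0.40, and -0.02 with library size alone), unevenly by class. CTT1, cytosolic catalase, PRX1, the mitochondrial peroxiredoxin (3.28 ± 0.17), and GRX2, a glutaredoxin gene that overlaps EMI1 (3.26 ± 0.23), rose by more than 8-fold, whereas the thioredoxin reductase TRR1 (0.20), the peroxiredoxin TSA1 (0.52), the peroxidase HYR1 (0.46) and the glutathione synthesis genes GSH1 (0.38) and GSH2 (0.24) did not pass.

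Chaperone genes rose in part. Of 20 genes for Hsp90, its partners, the disaggregase and small heat shock proteins 14 rose and none fell (median 1.21). HSP26 went from 13.9, 5 and 8.82 CPM to 228, 683 and 577 CPM (5.75 ± 0.42), HSP42 from 55.1, 35.1 and 32.6 CPM to 1290, 1324 and 2116 CPM (5.27 ± 0.27) and HSP104, the disaggregase, from 227, 235 and 184 CPM to 1874, 2006 and 3088 CPM (3.43 ± 0.21). BTN2, a sorter of misfolded proteins, rose by 3.44 ± 0.30. The mitochondrial chaperonin genes HSP60 (0.35) and HSP10 (0.27) did not pass. In the Hsp70 family 7 of 11 cytosolic genes rose, SSA4 most (3.78 ± 0.25), while the ribosome-bound and near-identical SSB1 (0.13) and SSB2 (0.35) did not pass, and of 7 genes of the endoplasmic reticulum and mitochondria 2 rose and 3 fell. The heat shock element, searched as GAANNTTC, lay within 600 bases in 65.0% of the Hsp90 group's promoters against 22.8% of all.

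The cell surface and ion balance changed through selected members. Of 47 genes of cell wall integrity 28 rose and 3 fell (median 0.82). SPI1, a wall protein linked to weak acid resistance, was at 42.1, 6.12 and 12.2 CPM and then at 911, 1767 and 1271 CPM (6.04 ± 0.57), and CWP1 (3.47), YGP1 (3.37), YPS1 (3.11) and CHS1, a chitin synthase (2.93), rose too. SLT2, the MAP kinase of the pathway, rose by 1.91 ± 0.12 while BCK1, which stands above it, fell by 0.58 ± 0.20. Of the 17 sensor and kinase genes in this list 2 fell, and 0 were called lower without the 2 libraries that stood apart. The eisosome core genes, whose products mark furrows of the plasma membrane, both rose: PIL1 went from 536, 563 and 399 CPM to 4250, 3614 and 4687 CPM (3.07 ± 0.22) and LSP1 by 2.37 ± 0.18. Among 28 genes of ion transport and calcineurin 12 rose and 5 fell (median 0.50). Besides the ENA sodium pumps, whose copies cannot be separated, RCN2, a calcineurin regulator, rose from 40.7, 28.4 and 30 CPM to 364, 467 and 439 CPM (3.68 ± 0.22), PMC1, the vacuolar calcium pump, by 2.32 ± 0.17 and HAL5, a kinase that supports potassium uptake, by 2.21 ± 0.17. The potassium importer itself fell, TRK1 going from 51.7, 76.1 and 61.6 CPM to 29.1, 17.1 and 20.5 CPM (-1.50 ± 0.21), and so did both subunits of the plasma membrane calcium channel, CCH1 (-1.15 ± 0.22) and MID1 (-0.96 ± 0.15).

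In nutrient signalling 14 of 35 genes of PKA, TOR and quiescence kinases rose and 1 fell (median 0.31, and -0.14 with library size alone). YAK1, a kinase that counters growth signals, went from 20.2, 20.7 and 11.7 CPM to 276, 164 and 322 CPM (3.86 ± 0.28), with IRC9 overlapping it. TPK2, a catalytic subunit of PKA, rose by 0.86 ± 0.16 and TPK3, another, did not pass (-0.09 ± 0.25). RAS2 rose by 2.09 ± 0.23 and RAS1 fell by 0.94 ± 0.14. Of 30 genes under nitrogen catabolite repression 11 rose and 8 fell. MEP1, an ammonium permease, was nearly the same in every library of a group, 28.6, 29 and 28.1 CPM and then 368, 378 and 364 CPM (3.70 ± 0.20), while its relatives MEP2 (-0.46 ± 0.14) and MEP3 (-0.83 ± 0.15) fell. Autophagy (11 higher and 3 lower of 26), ubiquitin and vacuolar proteolysis (14 and 4 of 28) and ergosterol synthesis (10 and 0 of 25) rose in more members than the background. With library size alone they had 3 higher and 6 lower, 8 and 6, and 3 and 3, against 586 and 2463 of all 6195 tested genes. Lipid synthesis was mixed (4 and 4 of 21), with INO1, inositol phosphate synthase, up from 5.07, 4.03 and 3.25 CPM to 38, 31.3 and 40 CPM (3.15 ± 0.21).

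The broadest fall was in ribosome assembly. 39 of 50 genes of the small subunit processome fell and none rose (median -0.86), and 47 of 59 assembly factors of the large subunit fell and none rose (median -0.97). RRP9 and SOF1, subunits of the processome, fell from 131, 143 and 94.8 to 38.4, 16 and 20.5 CPM (-2.29 ± 0.25) and from 94.7, 99 and 69.6 to 21.1, 15.9 and 18.1 CPM (-2.25 ± 0.17). On the large subunit side ALB1 fell from 209, 168 and 236 CPM to 41.1, 38.1 and 24.6 CPM (-2.56 ± 0.22) and SPB1, a methyltransferase, from 130, 184 and 104 CPM to 35.4, 19.2 and 17.9 CPM (-2.53 ± 0.29). The groups lie apart for all 4 genes. Members at the other end had not moved at 10 min by this test: the box C/D proteins NOP56 (-0.34), NOP58 (-0.27) and SNU13 (-0.18) and the helicases DBP2 (0.06) and HAS1 (-0.19) did not pass. Of 36 genes of RNA polymerases I and III 19 fell and 1 rose (median -0.59). The initiation factor RRN11 went from 20.2, 28.8 and 18.8 CPM to 2.41, 1.39 and 1.57 CPM, and RPC19, a subunit that both enzymes share, from 130, 124 and 87.9 CPM to 36.2, 27.6 and 28 CPM (-1.90 ± 0.20), while the largest Pol I subunits RPA190 (-0.14) and RPA135 (-0.06) did not pass. MAF1, the repressor of RNA polymerase III, was the member that rose (0.48 ± 0.17). No member was called higher without the 2 libraries that stood apart, or with library size alone.

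PAC was searched as GATGAG and RRPE as AAAATTTT on both strands from 250 bases before to 50 after the start codon. PAC lay in 20.4% of all promoters, in 90.0% of the processome genes and in 94.9% of the large subunit factors, and RRPE in 9.02%, 74.0% and 76.3%. Of all genes that fell by more than 2-fold 35.8% held PAC and 22.7% RRPE. The elements in 4 genes that fell are printed with PAC, or its reverse complement CTCATC, and RRPE in capitals: RRN11 (chrXIII:191931-191966, - strand), ALB1 (chrX:189581-189632, +), NOP4 (chrXVI:469809-469839, +) and EBP2 (chrXI:125624-125664, +).
RRN11: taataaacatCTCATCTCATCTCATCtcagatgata
ALB1: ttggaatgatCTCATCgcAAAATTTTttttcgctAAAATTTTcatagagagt
NOP4: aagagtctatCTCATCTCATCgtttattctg
EBP2: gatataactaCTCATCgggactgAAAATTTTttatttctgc
RRN11 holds 3 overlapping PAC copies, and NOP4, a factor of the large subunit that fell by 2.04 on the log2 scale, holds 2. Both lists were counted whole, with the members that did not pass.

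Few ribosomal protein genes were called. None of 56 small subunit genes rose and 3 fell (median 0.15, and -0.31 with library size alone), and none of 81 large subunit genes rose and 4 fell (median 0.11, and -0.32). Both lists took their largest share of the counts in the libraries that stood apart, and together 32.1% ± 4.9 without stress and 25.7% ± 4.25 at 10 min (SD, n = 3). RPL22A was at 1982, 1443 and 3900 CPM without stress and 1812, 4120 and 1766 CPM at 10 min, and without those libraries 3 small subunit genes and 6 large subunit genes fell and 0 and 1 rose. Among those that fell, several are the copy with the lower counts of a duplicated pair. RPL22B fell from 200, 177 and 390 CPM to 82.8, 87 and 71.5 CPM (-1.67 ± 0.29, adjusted p = 0.000229) while RPL22A did not pass (0.07 ± 0.36). RPS9A fell from 543, 526 and 699 CPM to 227, 266 and 161 CPM (-1.44 ± 0.22) beside RPS9B at 4285, 3472 and 7668 and then 3877, 7348 and 4197 CPM. RPS27A (-1.23 ± 0.16), RPS7B (-0.86 ± 0.22), RPL33B (-0.84 ± 0.23), RPL15A (-0.79 ± 0.29) and the unduplicated RPL3 (-0.97 ± 0.38) complete the 7. These 7 were singled out after their values were seen, and reads shared by near-identical copies make such splits uncertain. tRNA synthetases (3 higher and 0 lower of 18) and translation factors (5 and 6 of 41) also changed in few members.

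The cell cycle list fell more than it rose, with 29 of 66 genes lower and 10 higher (median -0.51). At the G1 to S step BCK2, an activator of G1 transcription, fell from 30.3, 45.7 and 20.2 CPM to 9.27, 3.44 and 10.2 CPM (-2.05 ± 0.36), the cyclin gene CLN2 from 107, 111 and 80.5 CPM to 54.5, 37.2 and 55.9 CPM (-1.01 ± 0.17), CLB6 by 2.16 and SWI6 by 1.33. SIC1, the inhibitor of S-phase cyclin kinase, rose from 59, 62.6 and 35 CPM to 132, 134 and 143 CPM (1.39 ± 0.19), and CLN3 (1.07 ± 0.24) and PCL1 (1.41 ± 0.12) rose as well. In mitosis CLB2 fell from 21.2, 40.6 and 6.06 CPM to 12, 5.2 and 10.2 CPM (-1.29 ± 0.46), with groups that overlap, and FKH2 (-1.69), CDC5 (-1.11) and CDC20 (-1.10) fell. The daughter-cell genes split, with DSE1 (1.47), CTS1 (1.32) and DSE2 (0.75) higher and DSE4 (-1.73) and ASH1 (-0.75) lower. Of 10 core histone and histone-like genes 2 rose (HHT2 0.52, which has a near-identical copy, and HTZ1 0.50) and none fell.

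Uptake of phosphate and iron fell in part. PHM6, a gene of the phosphate regulon with no settled function, had the deepest fall of the named genes, from 38.4, 33.2 and 22.7 CPM to 1.2, 1.11 and 1.07 CPM (-4.79 ± 0.28, adjusted p = 2.24e-09). SPL2, which lowers the low-affinity phosphate transport, fell by 1.84 ± 0.24 and PHO81, the inhibitor of the Pho80 and Pho85 kinase, by 1.32 ± 0.17. In all 10 of 25 genes fell and 2 rose (median -0.26): PHM8, a nucleotide phosphatase, from 53.1, 55.5 and 35.3 CPM to 320, 327 and 376 CPM (2.83 ± 0.18) and PHO89 by 1.28. For iron 15 of 30 genes fell and 4 rose (median -0.46). The reductase FRE1 went from 204, 302 and 209 CPM to 55, 42.1 and 56.4 CPM (-2.22 ± 0.20), and SIT1, a siderophore transporter, from 97.6, 120 and 120 CPM to 22.6, 28.1 and 24 CPM (-2.18 ± 0.18). Against them FIT1, a wall mannoprotein that retains iron siderophores, rose from 8.77, 6.8 and 9.78 CPM to 151, 116 and 148 CPM (4.03 ± 0.20) and HMX1, heme oxygenase, by 2.92 ± 0.14.

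Of 36 mRNA decay genes 11 fell and 4 rose (median -0.25), a share of 30.6% lower that lies near the 24.6% of all tested genes. In deadenylation VTS1, an RNA-binding protein that recruits the deadenylase, fell from 46.3, 52.7 and 41.4 CPM to 9.27, 4.83 and 8.19 CPM (-2.64 ± 0.20), PAN2 by 1.81 ± 0.25, CDC39 by 0.77 and POP2 by 0.76. In decapping DCP1 (-0.85), LSM7 (-0.83) and LSM4 (-0.67) fell, and the genes of the scavenger pathway rose, DCS1 from 45.8, 31.1 and 32.3 CPM to 208, 211 and 264 CPM (2.65 ± 0.17) and its inhibitor DCS2 by 2.12 ± 0.31, with EDC2 (2.50 ± 0.25). Amino acid synthesis was mixed, 17 higher and 12 lower of 63, and sulfate assimilation had 3 higher and 7 lower of 28. Purine and pyrimidine synthesis (3 higher and 6 lower of 31), fatty acid oxidation (3 and 2 of 21), and the pheromone response (10 and 4 of 29) were mixed as well. Among mating type and meiosis markers, 1 of 6 a-specific genes rose and 1 fell, neither of 2 tested alpha-specific genes was called, and 3 of 10 meiosis genes rose and 1 fell.

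**Figure D3:**
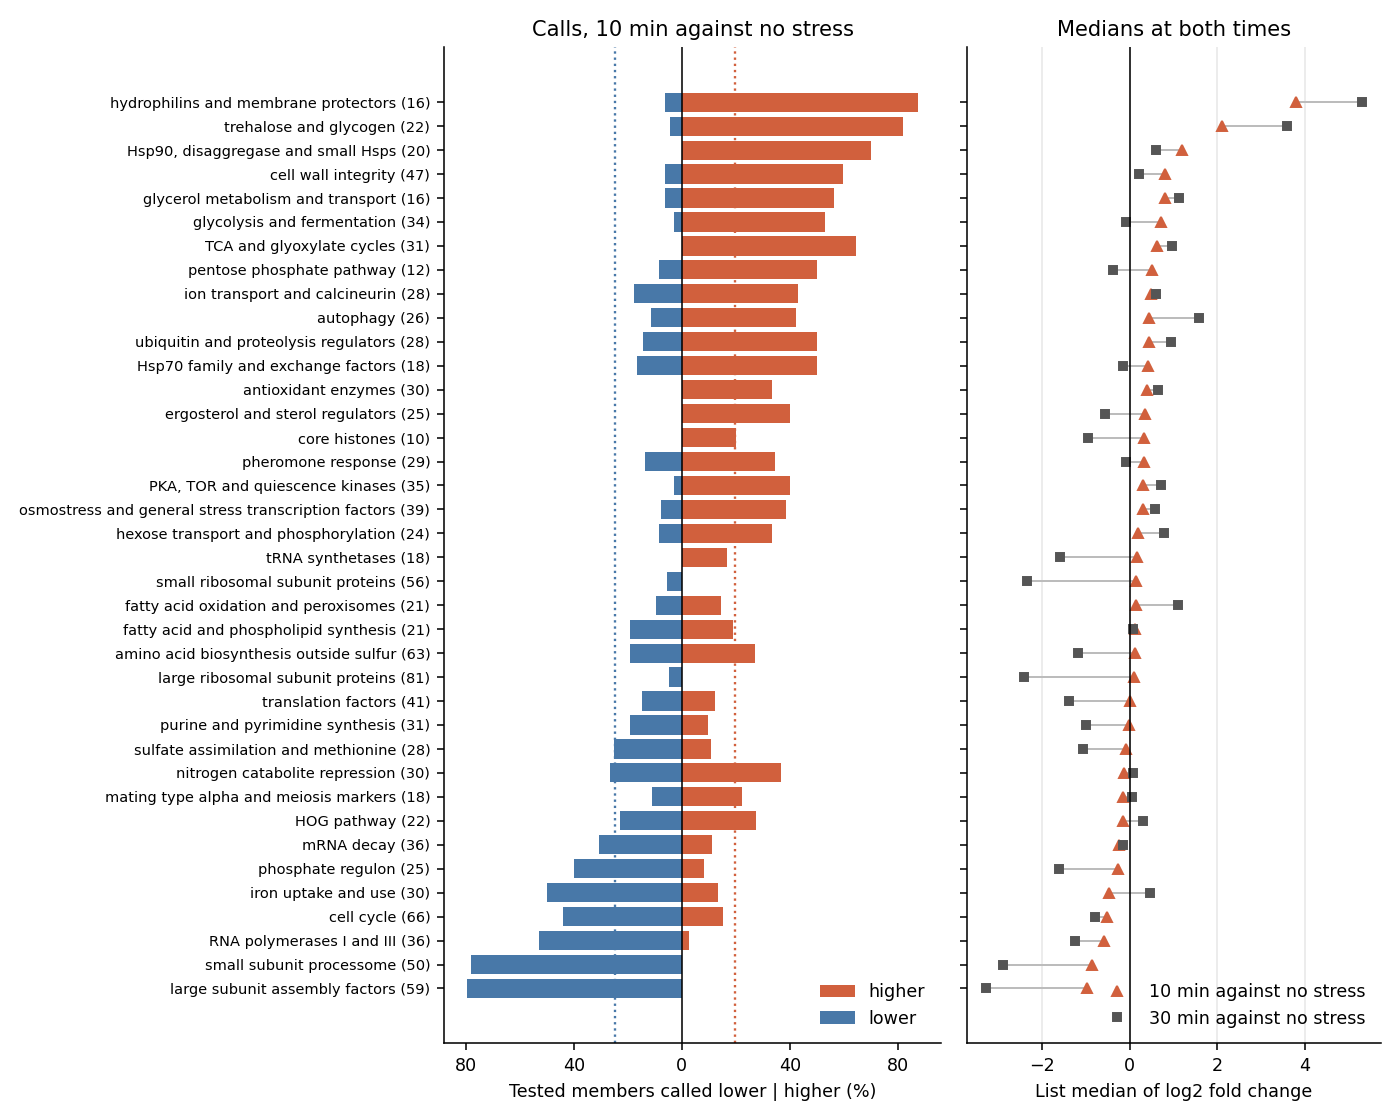
Left, share of the tested members of each of 38 gene lists called lower (blue, to the left) or higher (red, to the right) at 10 min against no stress, in percent, with dotted lines at the shares over all tested genes (24.6% and 19.7%) and the number tested in brackets. Right, the list median of the log2 fold change at 10 min (triangles) and 30 min (squares) against no stress, where the ribosomal protein lists go from 0.15 and 0.11 to -2.34 and -2.41.

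Many of the chosen pairs of genes with a shared function separated. The 66 pairs were written from textbook knowledge, with earlier results of these data known. Their counts describe these chosen pairs and not gene pairs in general. Both genes rose in 28, 1 rose while the other did not pass in 28, and the calls were opposite in 3. In 2 pairs 1 gene fell while the other did not pass, and in 5 neither passed. For 50 of the 66 pairs the log2 ratio of the genes did not overlap between the 3 no-stress and the 3 10 min libraries. Taken singly, 46.0% of all tested genes did not overlap. That share is no baseline for the 50, because a ratio can move with either gene and no share was computed for ratios at large. The catalases gave the widest split, with a ratio of CTT1 to CTA1 of 2.43 ± 1.26 without stress and 9.10 ± 0.31 at 10 min (log2, SD, n = 3). TKL2 to TKL1 went from -7.59 ± 1.29 to -1.34 ± 0.41, MPC3 to MPC2 from -5.40 ± 1.03 to 0.79 ± 0.20, and GPD1 to GPD2 from -0.37 ± 0.73 to 5.42 ± 0.31. Between the glycerol phosphatases GPP2 to GPP1 went from -4.68 ± 0.92 to -0.27 ± 0.13, and between the cytochrome c genes CYC7 to CYC1 from -4.42 ± 0.95 to 0.28 ± 0.46. The 3 ratios that fell furthest were of pairs whose second gene rose and whose first did not pass: MSN4 to MSN2 went from -1.13 ± 0.25 to -4.18 ± 0.29, NTH2 to NTH1 from -1.23 ± 0.19 to -4.27 ± 0.13 and DAK2 to DAK1 from -6.48 ± 0.73 to -8.65 ± 0.64. The opposite calls were in CIN5 and YAP6, in the yapsin proteases YPS1 (3.11 ± 0.28) and MKC7 (-1.62 ± 0.17), and in the glycogen phosphatase subunits GAC1 (1.26 ± 0.41) and PIG1 (-0.61 ± 0.23). GAC1 was low, at a mean of 0.568 CPM without stress and 1.34 CPM at 10 min. By edgeR's test the adjusted p was 0.0189 for GAC1 and 0.04 for PIG1. These ratios set counts of genes of unlike length side by side, so only their change between groups is to be read.

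**Figure D4:**
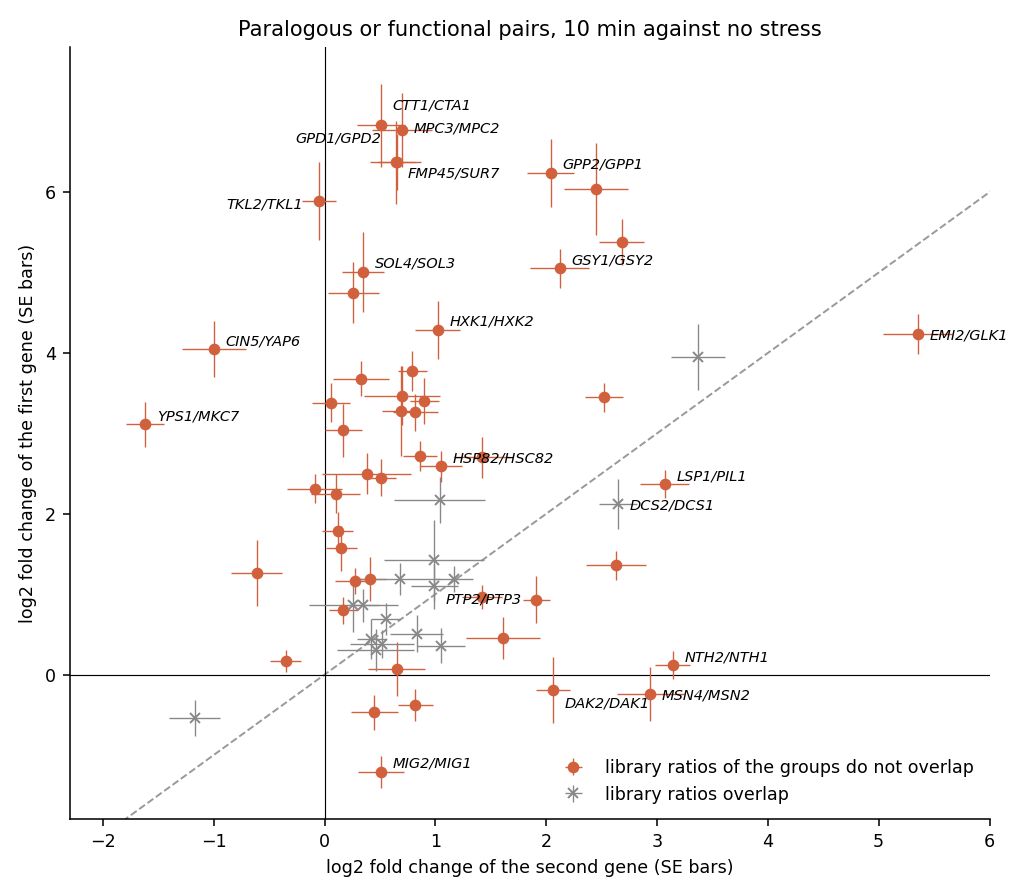
Log2 fold change at 10 min of the first gene (vertical) against the second gene (horizontal) of 66 pairs with a shared function, with SE bars and a dashed line where both would change alike. Red circles are the 50 pairs whose log2 ratio did not overlap between the groups of 3 libraries, and grey crosses the remaining pairs.

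Near chromosome ends fewer genes were called. Of 213 protein-coding genes within 20 kb of an end 9.39% rose and 17.8% fell, against 20.1% and 26.2% of the 5547 elsewhere, and the median of their mean levels over the 6 libraries was 5.7 CPM against 43.9 CPM. The role of this lower level in the shares was not tested.

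The 3 libraries at 30 min NaCl show what followed, as a comparison that shares the 10 min libraries with the one above. Between 10 and 30 min 30.6% of all tested genes rose and 25.7% fell (56.3% called). Of the 1218 genes higher at 10 min 335 rose further, 414 fell and 469 did not pass. Of the 1522 lower at 10 min 721 rose and 339 fell further. Since a chance high or low value at 10 min enters both comparisons with opposite sign, part of any reversal is built in, and the values in each library are the firmer description. GAL2 was back at 1.2, 0.899 and 0.925 CPM at 30 min (-4.53 ± 0.27 against 10 min), ROX1 was at 12, 9.44 and 15.1 CPM, below its no-stress libraries, and BTN2 at 123, 91 and 55.1 CPM. GRE1 and SIP18 came into full expression only then, at 261, 282 and 352 CPM and at 80.7, 102 and 109 CPM. SIT1 went past its starting level to 203, 240 and 254 CPM, and TIS11, an mRNA-binding regulator of iron use, went from 24, 23.4 and 14.8 CPM without stress to 6.02, 10 and 7.83 CPM at 10 min and 111, 112 and 166 CPM at 30 min. PHM6 and RRN11 stayed low, at 1.2, 1.43 and 0.925 CPM and at 4.94, 5.72 and 5.93 CPM.

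Most ribosomal protein genes fell in the second step. Between 10 and 30 min 55 of 56 small subunit and 80 of 81 large subunit protein genes fell (median -2.54 and -2.50), as did 45 processome genes, 57 large subunit assembly factors, all 18 tRNA synthetases and 51 of 63 amino acid synthesis genes. RPL22A reached 412, 318 and 422 CPM and RPS9B 839, 730 and 810 CPM, while RPL22B (-0.34) and RPS9A (-0.09), already lower at 10 min, did not pass. Of the assembly factors named above, DBP2 fell by 4.70 and NOP56 by 3.24 on the log2 scale, RRP9 rose (0.66) and SOF1 (0.38) did not pass. AAH1, adenine deaminase, went from 160, 161 and 94.9 CPM at 10 min to 3.37, 2.53 and 2.83 CPM at 30 min after no call in the first step.

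**Figure D5:**
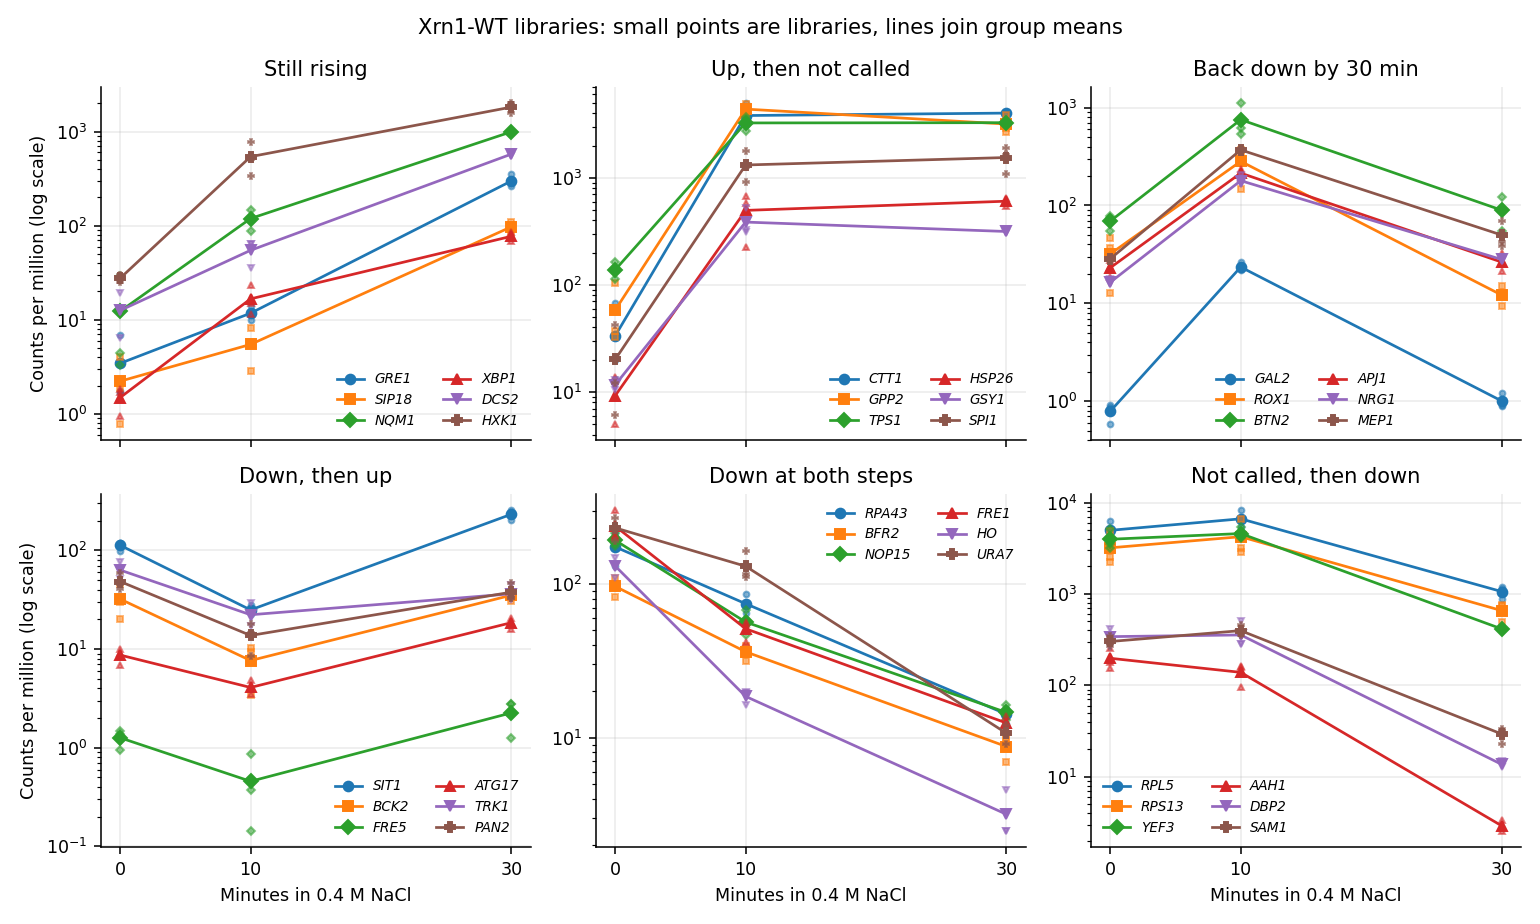
Level in CPM on a log axis against minutes in 0.4 M NaCl for 36 genes, chosen after their values were seen to show 6 courses, with small points for the 3 Xrn1-WT libraries of each time and lines through the group means. The first row shows genes that had risen at 10 min, and the second genes that had fallen or were not called at 10 min.

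The 10 min response of auxin-treated Xrn1-AID cells was set against that of Xrn1-WT cells by the interaction of salt and auxin. By it 48 genes (0.775%) were called, 18 with a higher and 30 with a lower change in Xrn1-AID, and a gene that was not called is not shown to respond alike. This difference contains the Xrn1-WT libraries described above. Its counts ranged from 0 to 81 higher and from 0 to 60 lower when 1 library was left out. Both were 0 without any one of the Xrn1-WT no-stress replicate 1, the Xrn1-WT 10 min replicate 1, the Xrn1-AID no-stress replicates 2 and 3 and the Xrn1-AID 10 min replicates 1, 2 and 3. Of the 38 lists none had more than 3 members called, and their median difference ranged from -0.45 in the Hsp70 family to 1.44 among hydrophilins. HSP12 (3.35, adjusted p = 0.0753) and HSP26 (0.43, adjusted p = 0.713) did not pass. The Xrn1-WT change of HSP12 that enters this difference was 5.54, and 7.41 without the Xrn1-WT no-stress replicate 1. SSA4 changed by 3.78 in Xrn1-WT and by 1.91 less in Xrn1-AID (SE 0.32, adjusted p = 0.0244), BTN2 by 3.44 and 2.18 less, and PHM6 by -4.79 with 1.77 more in Xrn1-AID, a shallower fall.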

How the data were processed

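mRNA was sequenced from 17 yeast libraries in 6 groups. The kit was TruSeq Stranded mRNA, read on an Illumina HiSeq as single reads of 50 bases, per the labels' protocols. The authors deposited 1 table of whole-number counts per feature. The submitters' processing notes name the build sacCer3 with featureCounts 1.5.1, TopHat2 2.1.0 and DESeq2 1.22.2, whereas the strand setting, the handling of reads with several matches and the annotation used are not given in the sources used here. Counts of near-identical or overlapping genes are therefore uncertain.

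From the deposited counts, edgeR 4.0.16 (R 4.3.3) filtered low features with filterByExpr, set TMM factors and fitted the quasi-likelihood model with robust dispersion to all 17 libraries as 6 groups, which share 1 estimate of the spread. 6195 of 7126 features were tested, and p-values were adjusted over all of them by the Benjamini-Hochberg method at 0.05. The contrasts were 10 min NaCl against no stress, 30 against 10 min, both in Xrn1-WT, and the 10 min response of Xrn1-AID minus that of Xrn1-WT. The SE is the fold change divided by the square root of F. Pair ratios used log2 CPM with a prior count of 2. On simulated data for the first contrast, run on 6139 genes, the fit recovered 31.8%, 56.7% and 90.9% of genes changed by 1.5, 2 and 4-fold, with 14 false among 133 calls. Only 200 genes were changed there, whereas 44.2% of tested genes were called in the data. The adjustment of p-values depends on that share, so these values do not give the recovery in the data. Library totals ranged from 13.9 to 30.4 M counts, and a count of 3, the floor, was 0.0986 to 0.181 CPM in the 6 libraries compared.

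84.87% of features matched a RefSeq locus tag (R64), which gave names, start codons and promoter sequence. 38 gene lists (7 of 1229 entries not tested) and 66 pairs were written from general knowledge, with earlier results of these data known, as were the members and tests. Named genes were the 15 per direction with the largest called change, at least 10 CPM on average and no overlap of libraries, the 4 called members of each list that changed most and the one most against the list median, members given as not called, pairs, markers, and 6 per direction in each other contrast. Further list members are printed as examples chosen after their values were seen. Alternatives were library size alone, DESeq2 1.42.0 size factors and Wald test, other filters, glmTreat against 1.5-fold, the compared groups alone, a replicate block and each replicate left out. The window of 600 bases and leaving out both libraries that stood apart were chosen after seeing the data. One gene is not reported here.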

Additional observations from a re-analysis of the deposited data

Results flagged for a closer look

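For 16 named genes the 10 min response differed between Xrn1-AID and Xrn1-WT cells by edgeR's test of the interaction (adjusted p from 0.0244 to 0.045, n = 3 libraries in each of the 4 groups). The values are the log2 change in Xrn1-AID minus that in Xrn1-WT, and their part due to the Xrn1-WT libraries shared with the report was not tested. Among genes with a lower change in Xrn1-AID, chaperone and sorting genes were BTN2 (-2.18), SSA4 (-1.91) and APJ1 (-1.37), which rose by 3.44, 3.78 and 3.21 in Xrn1-WT. Genes of the cell surface were the flocculin FLO11 (-2.22), the mannoprotein TIR4 (-1.41), the glucan synthase GSC2 (-1.03) and FIT1 (-1.18). ATG41, of autophagy (-2.01), the mitochondrial phosphate carrier MIR1 (-1.46) and the ammonium permease MEP2 (-0.89) made up the rest. A higher change in Xrn1-AID was found for PHM6 (1.77), CIT2, the peroxisomal citrate synthase (1.42), COG8 of the Golgi (1.21), the thiamine enzyme THI80 (1.19), the splicing factor CEF1 (1.19) and FAR10 (1.15). CIT2 rose in both, by 1.17 in Xrn1-WT, from 39.9 to 240 CPM in Xrn1-AID. PHM6 stood at 16.7 CPM without stress in Xrn1-AID and at 2.06 CPM at 10 min. Leaving out 1 library took the count of genes called in this test to 0 in both directions for Xrn1-WT no-stress replicate 1, Xrn1-WT 10 min replicate 1, Xrn1-AID no-stress replicates 2 and 3 and all 3 Xrn1-AID 10 min replicates.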

How the results depend on the processing

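The counts at 10 min changed in size, and in some settings the order of higher and lower calls turned. With library size alone 586 genes were higher and 2463 lower, against 1218 and 1522, and 3740 rose and 685 fell from 10 to 30 min, against 1895 and 1593. With glmTreat against 1.5-fold the counts were 618 and 534 at 10 min and 897 and 1029 from 10 to 30 min. With the compared groups alone 897 genes were higher and 886 lower at 10 min, so that, as with glmTreat, higher calls outnumbered lower ones. Leaving out each replicate gave 1063 to 1278 higher and 1335 to 1626 lower at 10 min, and 1663 to 1814 and 1434 to 1516 from 10 to 30 min. The difference between Xrn1-AID and Xrn1-WT (18 and 30) was 0 and 0 with library size alone or glmTreat, 131 and 172 by DESeq2's Wald test, 2 and 17 with the compared groups alone, 33 higher without both libraries that stood apart, and 0 to 81 and 0 to 60 with 1 replicate left out. The cause of these moves was not tested. Deviations of same-numbered libraries from their group means correlated at 0.10, -0.74 and -0.37. The 2 libraries that stood apart, which carry different numbers, correlated at 0.64, and deviations within a group are not independent. These values therefore cannot show whether same-numbered libraries belong together. A replicate block gave 1143 higher and 1383 lower at 10 min by the number in the title and 1117 and 1381 by that in the description, and 0 and 0 for the difference between Xrn1-AID and Xrn1-WT under either. Of 299 named genes called at 10 min, 80 lost the call under at least 1 of 15 settings. The 15 did not include glmTreat against 1.5-fold. Library size alone turned the sign of 3 of these 299 called genes. Called or not, the named genes it turned were URA3 (-0.40), UBC4 (-0.01), FRS1 (-0.03), RCK2 (-0.03) and GND1 (-0.39). Under it URA3 and GND1 were called lower by edgeR's test (adjusted p = 0.0241 and 0.0246), and UBC4, FRS1 and RCK2 did not pass. GND1 was not called in the main fit (0.06). In simulated data with only 200 changed genes 31.8% of 1.5-fold changes were recovered, which does not give the recovery in the data. Squared differences between replicates were 45.1 to 492 times those of counting error (chi-square per degree of freedom, with counts scaled by their totals without TMM). Depth was not varied, so its part in the recovery of small changes was not tested.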
